A study of Saccharomyces cerevisiae with 18 samples.

Results

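Transcripts of 30 genes of ergosterol synthesis and its regulation were followed in 6 strains of the baker's yeast S. cerevisiae that differ in HAC1, the transcription factor gene of the unfolded protein response, and in the protein they secrete. The genes were taken by name from the array annotation. They and the other gene lists below were chosen with earlier results of these data known. All 30 were found, each with 1 probe set, among 5449 genes tested. Every strain derives from CEN.PK 113-5D, a ura3-52 haploid, and carries a high-copy URA3 plasmid. The wild-type strains hold the empty vector p426GPD (WN), the vector for secreted insulin precursor (WI) or the vector for secreted α-amylase (WA). The α-amylase DNA was amplified from a strain of Saccharomyces kluyveri. The deletion strains dN, dI and dA hold the same 3 vectors, and their HAC1 is replaced by kanMX, a cassette amplified from a deletion strain of another background. Both proteins follow a leader of Yap3 and TA57 behind the constitutive TDH3 promoter. How many transformants stand behind a strain is not given in the sources used here. For each strain, 3 aerated glucose cultures were sampled in exponential growth, and total RNA of each culture was put on 1 Affymetrix Yeast Genome 2.0 array, 18 in all. Values are log2 signals as the authors normalized them.

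Ergosterol is the main sterol of yeast membranes. Its synthesis starts from acetyl-CoA, passes through mevalonate, farnesyl diphosphate, squalene and lanosterol, and ends with reshaping of the ring and side chain, mostly on the ER membrane. HMG-CoA reductase is the classical control point, several later steps consume molecular oxygen, and some of them contain heme. Upc2 and Ecm22 are related zinc cluster activators of the sterol genes that respond to low sterol, and Are1 and Are2 esterify sterols for storage.

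HAC1 read 10.61, 10.73 and 10.54 in WN and 1.41, 1.18 and 1.35 in dN, and in all 9 deletion arrays it lay below the background of the array. That background, the 95th percentile of probe sets outside the genes tested, was at 4.38 to 4.63, and all 30 sterol genes were above it on all 18 arrays. UPC2 and ECM22 came closest to it, with lowest readings of 4.60 and 4.83. Most enzymes read high on the arrays, with ERG11, ERG6, ERG20, ERG10, ERG2 and ERG25 averaging 10.85, 10.78, 10.75, 10.56, 10.62 and 10.60. Signals of different probe sets are not per length, so their order among genes was not read as an order of transcript levels. The array of dN replicate 3 stood apart, with a residual SD of 0.361 over all genes and 0.162 over the sterol genes, against 0.0768 to 0.250 and 0.0545 to 0.106 in the other arrays. The labels of WN replicate 1 describe another way of breaking the cells than those of the other 17 arrays. Every adjusted p given here comes from limma, with a mean per strain over all 18 arrays and Benjamini-Hochberg adjustment, and a gene counts as called where it is under 0.05. For a single gene in 2 strains, the smallest two-sided p that exact permutation allows is 0.1.

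In the HAC1 deletion a few sterol genes were higher, a few were lower and most had no call. In such bulk samples fewer cells that express a gene and less RNA per cell cannot be told apart. In dN against WN, 5 of the 30 genes rose, 3 fell and 22 had no call. In dI against WI the counts were 5, 3 and 22, and in dA against WA they were 5, 4 and 21. The shares called, 26.7%, 26.7% and 30%, stood beside 21.5%, 20.2% and 23.2% of all genes tested, and so were near the share among genes at large. By direction, all genes gave 9.49%, 9.47% and 9.6% higher and 12%, 10.8% and 13.6% lower. The arrays of the compared strains did not overlap for 14, 15 and 16 of the 30 genes, against 30.8%, 46% and 45.7% of all genes. The median log2 fold changes of the 30 genes were 0.07, -0.03 and 0.07, against 0.03, 0.04 and 0.01 over all genes. These 3 comparisons have no array in common, although they share the estimate of the spread. HMG1, UPC2 and ERG4 were called higher in all 3, as were 1.8% of all genes, and CYB5 and ERG27 were called lower in all 3, as were 7.03% of all genes. Over the 3 comparisons 14 of the 30 genes (46.7%) were called at least once, and over all 9 comparisons of 2 strains 16 (53.3%), against 38.5% and 44.5% of all genes. In a fit of only WN and dN, 2 of the 30 genes were called in place of 8, or 6.67%. They were HMG1 and ERG4, and the calls in dN of UPC2, IDI1, ERG6, CYB5, ERG27 and HMG2 were lost. In that fit all genes fell from 1170 to 343, or 6.29%.

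**Figure D1:**
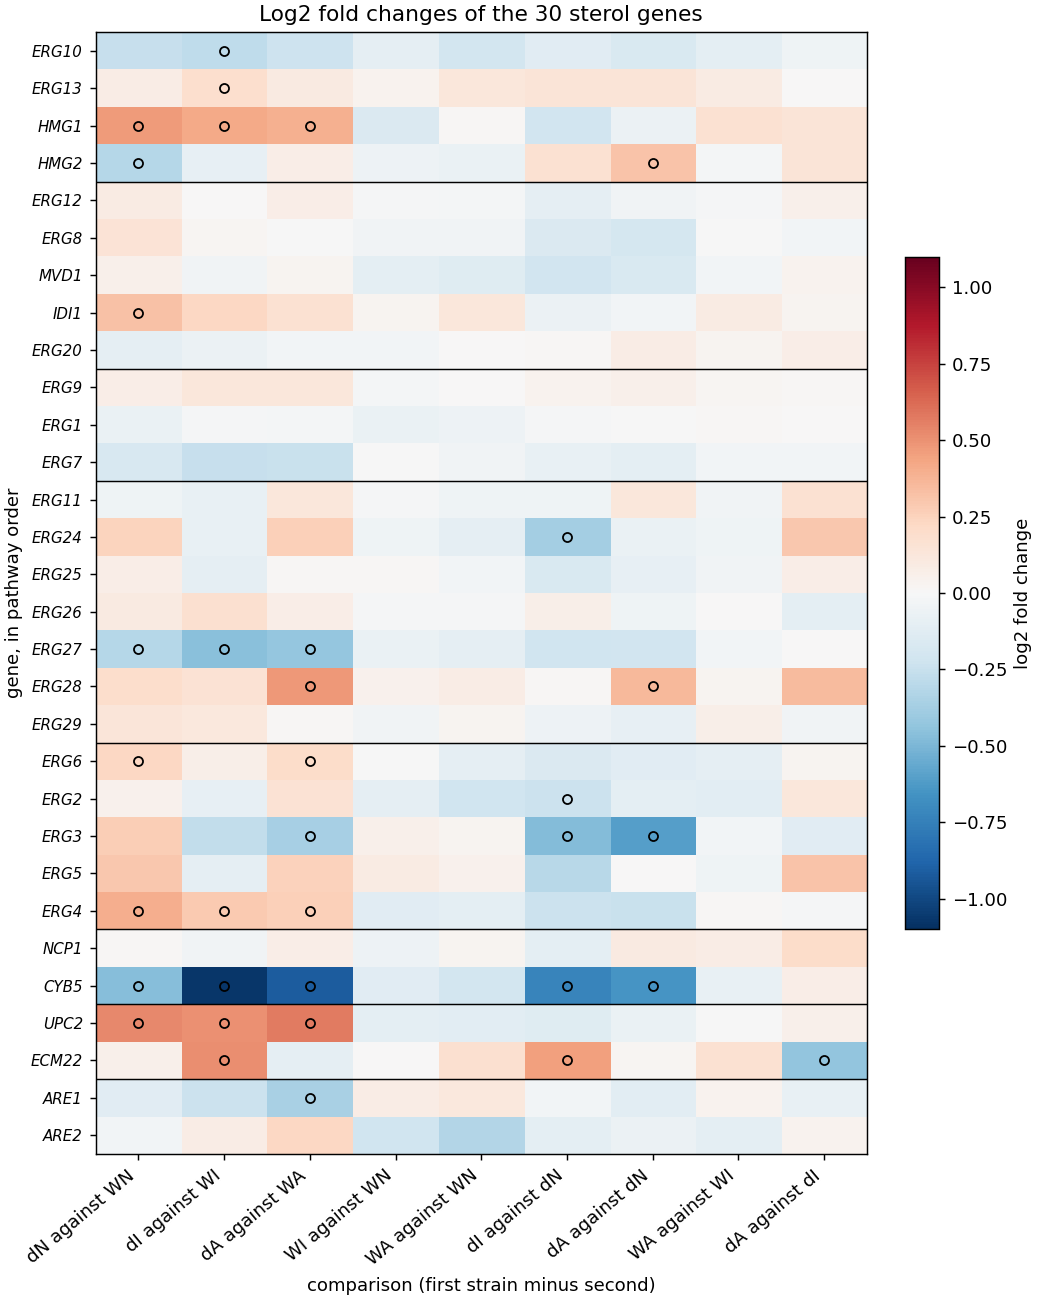
Log2 fold changes of the 30 sterol genes (rows, in pathway order, with lines between the steps) in the 9 comparisons of 2 strains (columns, first strain minus second), with circles at an adjusted p under 0.05. The rows of HMG1, ERG4 and UPC2 are red and those of ERG27 and CYB5 blue in the 3 columns on the left, and the columns of the wild-type strains hold no circle.

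**Figure D2:**
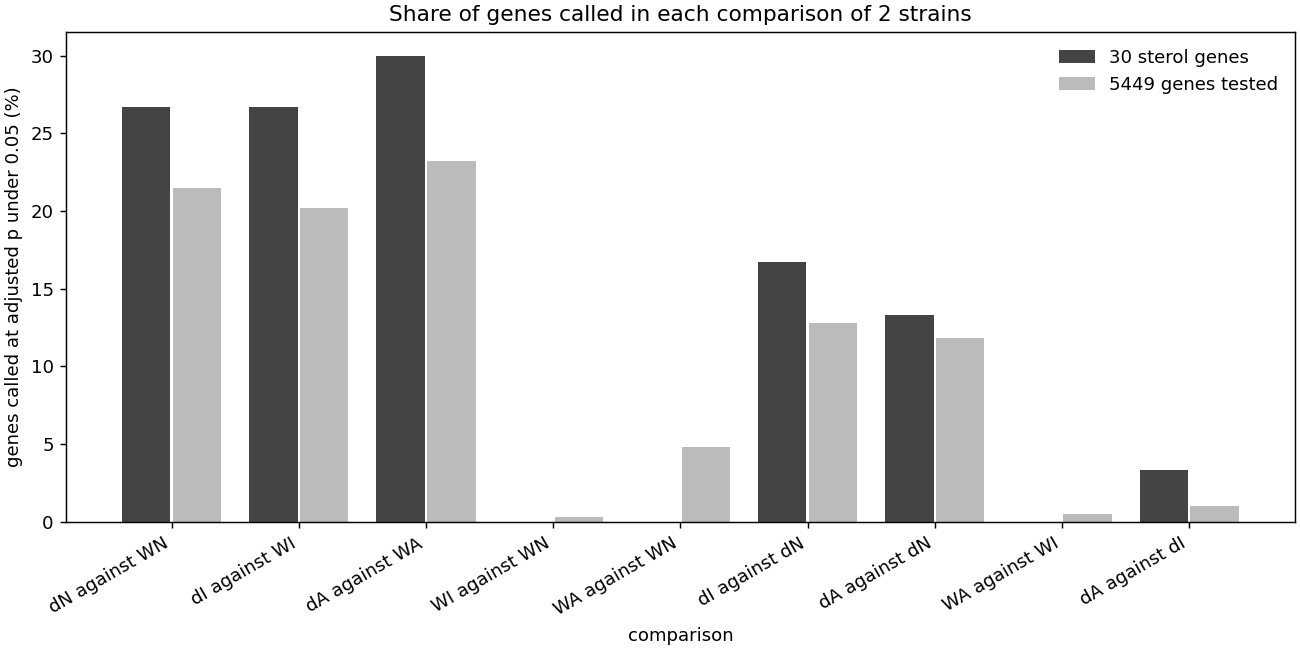
Percent of genes called at an adjusted p under 0.05 in each comparison of 2 strains, for the 30 sterol genes (dark) and all 5449 genes tested (light). The sterol genes stand at 26.7% to 30% in the 3 deletion comparisons, beside 20.2% to 23.2% of all genes.

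In the first steps, from acetyl-CoA to mevalonate, the reductase gene HMG1 was called in all 3 deletion comparisons and none of the other genes was. HMG1 (YML075C) encodes the isoenzyme of HMG-CoA reductase that carries most of the activity in aerated cells. It read 8.92, 8.73 and 8.74 in WN, 8.61, 8.69 and 8.63 in WI and 8.63, 8.91 and 8.88 in WA. In the deletion strains it read 9.39, 9.21 and 9.20 in dN, 9.06, 9.17 and 8.95 in dI and 9.42, 9.13 and 9.05 in dA. All 9 deletion arrays were above all 9 wild-type arrays, as for 1.85% of all genes. HMG1 was 1.38-fold higher in dN (log2 fold change 0.47, standard error 0.10, adjusted p = 0.00461). It was 1.34-fold higher in dI (adjusted p = 0.00907) and 1.31-fold higher in dA (adjusted p = 0.0116). Without WA replicate 1 or dA replicate 1 the last comparison did not pass (adjusted p = 0.0639 to 0.0679).

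HMG2 (YLR450W) encodes the second reductase, whose protein is degraded when sterol intermediates build up. It read 7.18, 7.00 and 6.96 in WN and 6.74, 6.75 and 6.71 in dN, and the 2 groups did not overlap. HMG2 fell by 0.31 on the log2 scale in dN (adjusted p = 0.0305), where HMG1 rose. It read 6.91, 7.07 and 6.73 in dI and 7.23, 6.92 and 7.00 in dA, which overlapped the arrays of WI and WA, and the 95% intervals of the difference were -0.288 to 0.115 and -0.127 to 0.276. The fall in dN did not pass without WN replicate 1, WN replicate 2, dN replicate 1 or dN replicate 3 (adjusted p = 0.0564 to 0.131).

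ERG10 (YPL028W), the acetyl-CoA thiolase gene of the first reaction, read 10.78, 10.65 and 10.64 in WI and 10.37, 10.45 and 10.41 in dI and was called lower (-0.28, adjusted p = 0.0343). Leaving out any 1 of the 6 arrays of WI and dI ended that call (adjusted p = 0.0592 to 0.137). In the other strains ERG10 ranged from 10.31 to 10.84, with differences of -0.26 in dN and -0.22 in dA that did not pass, the former called without dN replicate 1 or 2 (adjusted p = 0.0241 to 0.0333). ERG13 (YML126C), the HMG-CoA synthase gene, was called higher in dI (0.18, adjusted p = 0.0119). It read 10.32, 10.25 and 10.28 in WI and 10.43, 10.51 and 10.47 in dI, and the call was lost without WI replicate 2 (adjusted p = 0.0533). Its log2 fold changes were 0.08 in dN and 0.10 in dA.

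The 5 genes between mevalonate and farnesyl diphosphate, the prenyl donor shared by sterols, dolichol, heme A and ubiquinone, gave 1 call. IDI1 (YPL117C), the isopentenyl diphosphate isomerase gene, read 8.62, 8.64 and 8.74 in WN and 9.02, 8.89 and 9.07 in dN and rose by 0.33 (standard error 0.08, adjusted p = 0.00985). It was 8.89 to 8.99 in the dI arrays and 8.86 to 9.02 in the dA arrays, with differences of 0.23 (adjusted p = 0.0554) and 0.17 (adjusted p = 0.142). ERG12 (mevalonate kinase), ERG8 (phosphomevalonate kinase), MVD1 (mevalonate diphosphate decarboxylase) and ERG20 (farnesyl diphosphate synthase) passed in none of the 9 comparisons. Over the 18 arrays they ranged over 8.76 to 8.97 (ERG12), 8.75 to 9.12 (ERG8), 9.75 to 10.16 (MVD1) and 10.62 to 10.84 (ERG20). Their intervals in dN were -0.0325 to 0.213 for ERG12, -0.0015 to 0.296 for ERG8, -0.106 to 0.226 for MVD1 and -0.231 to 0.0273 for ERG20.

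The 3 genes that turn farnesyl diphosphate into lanosterol, ERG9 (squalene synthase), ERG1 (squalene epoxidase) and ERG7 (lanosterol synthase), passed in no comparison. Over the 18 arrays ERG9 ranged over 9.60 to 9.89 and ERG1 over 9.80 to 10.11, and the lowest ERG7 array was at 8.43. The strain means of ERG1, the first oxygen-using step and the target of allylamine antifungals, lay within 0.0824 of each other, the smallest spread of strain means among the 30 genes. The 95% intervals of the differences were -0.229 to 0.0881 in dN, -0.171 to 0.146 in dI and -0.181 to 0.136 in dA. ERG7 was at -0.18, -0.25 and -0.25 in the 3 deletion comparisons and did not pass (adjusted p = 0.166, 0.0626 and 0.0587). Without WI replicate 1 it passed in dI (adjusted p = 0.037).

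From lanosterol to zymosterol, ERG27 was lower in every deletion strain. Erg27 is the 3-ketosteroid reductase of the complex that removes the methyl groups at C-4, together with Erg25, Erg26 and the scaffold protein Erg28. ERG27 (YLR100W) read 9.54, 9.62 and 9.61 in WN, 9.57, 9.44 and 9.54 in WI and 9.55, 9.48 and 9.46 in WA. In the deletion strains it read 9.38, 9.41 and 9.05 in dN, 9.04, 9.09 and 9.04 in dI and 9.04, 9.11 and 9.05 in dA. All 9 deletion arrays were below all 9 wild-type arrays, as for 7.05% of all genes, although dN replicates 1 and 2 lay near the wild type. Its log2 fold changes were -0.31 (standard error 0.08, adjusted p = 0.0113), -0.46 (adjusted p = 0.000623) and -0.43 (adjusted p = 0.000999).

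None of its partners in the complex was called lower. ERG28 (YER044C) read 9.13, 8.98 and 8.96 in dA, above the 8.33 to 8.78 of the other 15 arrays. It rose in dA against WA by 0.47 (standard error 0.09, adjusted p = 0.00142), while differences of 0.20 in dN and 0.16 in dI did not pass. ERG25, the C-4 methyl oxidase gene, and ERG26, the C-3 dehydrogenase gene, passed in no comparison. ERG26 passed in dN without dN replicate 3 (adjusted p = 0.0235), the array at 8.97 where the other dN arrays were at 9.26 and 9.28. ERG11, the heme-containing 14α-demethylase and target of the azoles, was at -0.05, -0.08 and 0.12 with intervals of -0.252 to 0.15, -0.285 to 0.117 and -0.08 to 0.321. ERG24, the C-14 reductase gene, and ERG29, a gene linked to the C-4 methyl oxidase step, also had no call for the deletion. Over the 18 arrays ERG11 ranged over 10.66 to 11.08, ERG25 over 10.45 to 10.75, ERG26 over 8.97 to 9.28 and ERG29 over 7.99 to 8.31. ERG24 passed in dA without WA replicate 3 (adjusted p = 0.0347).

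**Figure D3:**
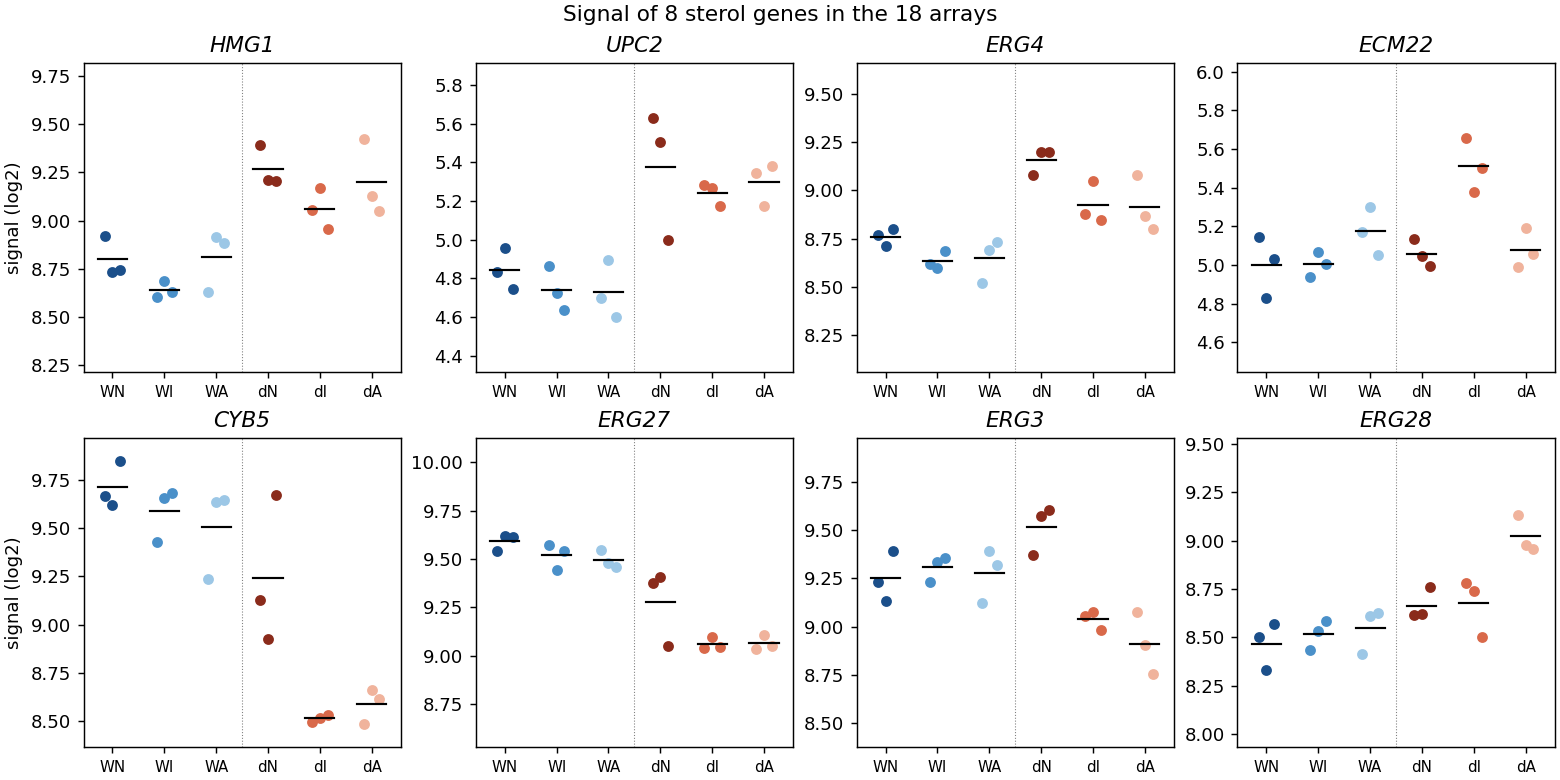
Log2 signal of 8 sterol genes in the 6 strains, with a point for each of the 3 arrays and a black line at their mean. The dotted line separates wild type from deletion (vertical axes differ between genes and do not start at 0). CYB5 lies at 8.49 to 8.66 in dI and dA and at 9.24 to 9.85 in wild type, with the dN arrays in between or level with wild type.

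In the last stretch, from zymosterol to ergosterol, ERG4 was higher in all 3 deletion strains and ERG6 in dN and dA, and ERG3 was lower in dA. ERG4 (YGL012W), the reductase gene of the final step, read 8.77, 8.71 and 8.80 in WN, 8.62, 8.60 and 8.69 in WI and 8.52, 8.69 and 8.74 in WA. It read 9.08, 9.20 and 9.20 in dN, 8.88, 9.05 and 8.85 in dI and 9.08, 8.87 and 8.80 in dA, where the lowest array was level with the highest of the wild type. ERG4 was higher by 0.40 (standard error 0.08, adjusted p = 0.00284), 0.29 (adjusted p = 0.0214) and 0.27 (adjusted p = 0.0275). The call in dI was lost without WI replicate 1, WI replicate 2 or dI replicate 2 (adjusted p = 0.0663 to 0.0974). That in dA was lost without WA replicate 1 or dA replicate 1 (adjusted p = 0.135 to 0.137).

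ERG6 (YML008C), the C-24 methyltransferase gene, read 10.69, 10.72 and 10.80 in WN and 11.00, 10.96 and 10.93 in dN. It read 10.49, 10.70 and 10.73 in WA and 10.78, 10.85 and 10.87 in dA. It was higher by 0.23 in dN (adjusted p = 0.0204) and 0.20 in dA (adjusted p = 0.0331), with arrays that did not overlap. In dI it read 10.79, 10.80 and 10.82, against 10.75, 10.70 and 10.75 in WI, a difference of 0.07 that did not pass (adjusted p = 0.522, interval -0.0686 to 0.202). The call in dN was lost without WN replicate 1, WN replicate 2 or dN replicate 1 (adjusted p = 0.0638 to 0.0807). The call in dA was lost without WA replicate 1, dA replicate 2 or dA replicate 3 (adjusted p = 0.0997 to 0.173). ERG2 (C-8 isomerase) and ERG5 (the heme-containing C-22 desaturase) had no call for the deletion. ERG5 ranged over 8.61 to 9.30 and had the highest upper bounds among genes without a call, 0.552 in dN and 0.511 in dA.

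ERG3 (YLR056W), the C-5 desaturase gene, was lower in dA than in WA. It read 9.12, 9.39 and 9.32 in WA and 9.07, 8.90 and 8.75 in dA, a difference of -0.37 on the log2 scale (standard error 0.10, adjusted p = 0.0117) that did not pass without WA replicate 2 or dA replicate 3 (adjusted p = 0.0535 to 0.0633). In dI it was at -0.27 (adjusted p = 0.0631). In dN it was at 0.27, the other way, and passed without WN replicate 3 or dN replicate 1 (adjusted p = 0.0361 to 0.04). Of the 5 genes for oxygen-using steps, ERG1, ERG11, ERG25, ERG3 and ERG5, none was called in dN or dI and only ERG3 was called in dA.

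CYB5 had the largest change of the 30 genes in dI and in dA. It encodes cytochrome b5, a heme protein of the ER membrane that can pass electrons to Erg11 and to desaturases. CYB5 (YNL111C) read 9.66, 9.62 and 9.85 in WN, 9.43, 9.66 and 9.68 in WI and 9.24, 9.64 and 9.65 in WA. It read 9.13, 8.93 and 9.67 in dN, 8.50, 8.52 and 8.53 in dI and 8.49, 8.66 and 8.62 in dA. The dI and dA arrays all lay under the wild type, while dN replicate 3 was level with it. CYB5 was 2.1-fold lower in dI (log2 fold change -1.07, standard error 0.15, adjusted p = 0.000106) and 1.89-fold lower in dA (-0.92, adjusted p = 0.000449). In dN the call at -0.47 (adjusted p = 0.0399) was lost without any 1 of the 3 WN arrays, dN replicate 1 or dN replicate 2 (adjusted p = 0.0673 to 0.114). NCP1, the NADPH-cytochrome P450 reductase gene that serves as the other electron donor, passed in no comparison. It ranged over 9.02 to 9.53 with differences of 0.01, -0.04 and 0.07.

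Of the 2 activator genes, UPC2 was called higher in all 3 deletion comparisons and ECM22 in dI against WI. UPC2 (YDR213W) read 4.83, 4.96 and 4.75 in WN, 4.86, 4.72 and 4.63 in WI and 4.70, 4.90 and 4.60 in WA. It read 5.63, 5.51 and 5.00 in dN, 5.29, 5.27 and 5.18 in dI and 5.35, 5.18 and 5.38 in dA, so that all 9 deletion arrays were above all 9 wild-type arrays, with dN replicate 3 and WN replicate 2 the closest pair. Its log2 fold changes were 0.53 (standard error 0.13, adjusted p = 0.00969), 0.50 (adjusted p = 0.0132) and 0.57 (adjusted p = 0.00519). The call in dI was lost without WI replicate 3 (adjusted p = 0.0597). These signals stood little above the background, where log2 differences are compressed.

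ECM22 (YLR228C) read 4.94, 5.07 and 5.01 in WI and 5.66, 5.38 and 5.50 in dI, and it ranged from 4.83 to 5.30 over the other 12 arrays. It was 1.42-fold higher in dI than in WI (log2 fold change 0.51, standard error 0.09, adjusted p = 0.00116). In dN and dA it was at 0.06 and -0.09 (adjusted p = 0.697 and 0.511). Of the 2 esterification genes, ARE1 (YCR048W) read 6.09, 5.92 and 5.96 in WA and 5.79, 5.60 and 5.51 in dA and fell by 0.36 (adjusted p = 0.0176). The fall was lost without WA replicate 1, dA replicate 2 or dA replicate 3 (adjusted p = 0.0593 to 0.0825), and ARE1 passed in dI without dI replicate 2 (adjusted p = 0.0333). ARE2 ranged over 7.64 to 8.36 and passed in no comparison.

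Secretion in wild type left the sterol genes without a call. In WI against WN, WA against WN and WA against WI, none of the 30 genes passed with limma, where 0.294%, 4.79% and 0.496% of all genes did. At an unadjusted p under 0.05 there were 0, 4 and 0 of the 30. These counts were not set against the share of all genes and so were not read as a result about the 30. Their log2 fold changes ran from -0.22 to 0.09 in WI, from -0.32 to 0.17 in WA and from -0.12 to 0.17 between WA and WI. ARE2 had the lowest value in both comparisons with WN, which share the WN arrays. It read 8.11, 8.11 and 8.12 in WN, 7.92, 7.81 and 7.96 in WI and 7.82, 7.64 and 7.92 in WA, which gave differences of -0.22 in WI (adjusted p = 0.887) and -0.32 in WA (adjusted p = 0.145). The widest bounds of the 95% intervals were -0.464 (ARE2) and 0.347 (ERG5) in WI and -0.568 (ARE2) and 0.373 (ECM22) in WA. With array quality weights 5 of the 30 were called in WA, where 1465 of all genes (26.9%) were. Without dN replicate 3 in the shared spread 2 were, where 520 of all genes (9.54%) were.

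In the deletion background, a few sterol genes were called with either protein. In dI against dN, 1 of the 30 genes rose, 4 fell and 25 had no call, which is 16.7% called against 12.8% of all genes (7.05% higher and 5.78% lower). In dA against dN, 2 rose, 2 fell and 26 had no call, or 13.3% against 11.8% of all genes (5.91% higher and 5.85% lower). Arrays did not overlap for 13 and 7 of the 30, against 24.8% and 23.5% of all genes. Both comparisons use the same dN arrays, dN replicate 3 among them. The median log2 fold changes were -0.11 and -0.07, against -0.02 over all genes in each. In a fit of only the strains compared, none of the 30 was called in either comparison, and in the same fits 71 and 82 of all genes were called in place of 699 and 641. Without dN replicate 3, 7 of the 30 were called in each, where all genes gave 906 (16.6%) in dI and 1344 (24.7%) in dA.

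ERG3 and CYB5 were lower with either protein. ERG3 read 9.37, 9.58 and 9.60 in dN, 9.06, 9.08 and 8.98 in dI and 9.07, 8.90 and 8.75 in dA, with no overlap between dN and either producing strain. It was 1.39-fold lower in dI (log2 fold change -0.48, standard error 0.10, adjusted p = 0.00479) and 1.52-fold lower in dA (-0.61, adjusted p = 0.000911). In wild type it read 9.23, 9.13 and 9.39 in WN and 9.23, 9.34 and 9.36 in WI, and the difference from WN was 0.06 with insulin precursor and 0.03 with α-amylase. The difference between its α-amylase effects in the deletion and in wild type was -0.63 (standard error 0.14, adjusted p = 0.0341), the only one of the 30 to pass, where 1.34% of all genes did. That call was lost in 7 of the 12 fits without 1 array (WN replicate 1 or 2, WA replicate 2 or 3, dN replicate 2, dA replicate 2 or 3, adjusted p = 0.0578 to 0.108) and in the fit of only these strains. The same difference for insulin precursor was -0.54 (adjusted p = 0.104).

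CYB5 fell by 0.73 on the log2 scale in dI (adjusted p = 0.0057) and by 0.65 in dA (adjusted p = 0.0128), the latter lost without dA replicate 1 (adjusted p = 0.0597). The differences from its effects in wild type, -0.60 and -0.45, did not pass (adjusted p = 0.307 and 0.405). ERG27 did not pass in either comparison, at -0.22 and -0.21. Without dN replicate 3, whose ERG27 signal of 9.05 was below the 9.38 and 9.41 of the other dN arrays, it was called lower in both (adjusted p = 0.00162 and 0.00108). Without that array ERG10 was also called in dI and dA (adjusted p = 0.0432 and 0.0122), UPC2 in dI (adjusted p = 0.0338) and ERG8 in dA (adjusted p = 0.0279). ERG4 was called in dI without dI replicate 2 (adjusted p = 0.0452) and in dA without dA replicate 1 (adjusted p = 0.0284).

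The remaining calls came with 1 of the proteins each. In dI, ECM22 was higher than in dN, where it read 5.13, 5.05 and 4.99, by 0.45 (standard error 0.09, adjusted p = 0.00528). Its insulin precursor effect differed from that in wild type by 0.45, which did not pass (adjusted p = 0.188). ERG24 (YNL280C) read 8.53, 8.60 and 8.71 in dN and 8.22, 8.37 and 8.13 in dI and fell by 0.37 (adjusted p = 0.0256). ERG2 (YMR202W) read 10.79, 10.82 and 10.64 in dN and 10.48, 10.63 and 10.44 in dI and fell by 0.23 (adjusted p = 0.0393). The ERG24 call was lost without dN replicate 3, dI replicate 1 or dI replicate 3 (adjusted p = 0.0541 to 0.119). The ERG2 call was lost without dN replicate 1 or 2 or dI replicate 1 or 3 (adjusted p = 0.0763 to 0.162).

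In dA, ERG28 read 9.13, 8.98 and 8.96, against 8.61, 8.62 and 8.76 in dN, and rose by 0.36 (adjusted p = 0.0191). HMG2 rose by 0.31 (adjusted p = 0.0451) from its low level there. The ERG28 call was lost without dN replicate 1 or dA replicate 1 (adjusted p = 0.0677 to 0.093). The HMG2 call was lost without dN replicate 1 or 2 or dA replicate 1 or 3 (adjusted p = 0.0657 to 0.199).

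A direct comparison of dA with dI left 1 of the 30 genes, or 3.33% against 0.991% of all genes. ECM22 was lower in dA, at 4.99, 5.19 and 5.05, than in dI, by 0.43 on the log2 scale (standard error 0.09, adjusted p = 0.0361). The call was lost without dI replicate 1 or 3 or any 1 of the dA arrays (adjusted p = 0.0665 to 0.184). ERG28 and ERG24, each called against dN with 1 of the proteins, were at 0.35 and 0.30 between dA and dI and did not pass (adjusted p = 0.0857 and 0.184). No insulin precursor effect on any of the 30 genes was shown to differ between the backgrounds, where 0.716% of all genes passed. The widest bounds of the 95% intervals of these differences were -1.06 (CYB5) and 0.734 (ECM22). At an unadjusted p under 0.05 there were 5 of the 30. That count was not set against the share of all genes and so was not read as a result about the 30.

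Around the pathway, several genes linked to the turnover of sterol enzymes or to the use of farnesyl diphosphate were lower in the HAC1 deletion, while other genes of these lists were not. Of all genes, 9.49%, 9.47% and 9.6% were higher in dN, dI and dA, and 12%, 10.8% and 13.6% were lower. These shares stand beside every list count below. Of 6 genes for the turnover of sterol enzymes, 4 were lower and 0 were higher in each deletion comparison, with list medians of -0.66, -0.58 and -0.48 beside the 0.03, 0.04 and 0.01 of all genes. They were HRD1, the ubiquitin ligase that acts on Hmg2, its partner HRD3, the conjugating enzyme UBC7 and SPF1, an ER ATPase. HRD1 read 8.09, 8.19 and 7.91 in WN and 7.06, 7.08 and 6.63 in dN and fell by 1.14 in dN, 0.91 in dI and 0.67 in dA (adjusted p = 1.27e-05, 0.000119 and 0.00165). SSM4, the ligase of Erg1, did not pass there (0.16, 0.06 and 0.14), nor did CUE1. SPF1 was also lower in WA than in WN and in dI than in dN, by 0.34 and 0.31 (adjusted p = 0.0402 and 0.0353). The first was lost without WN replicate 1 or 2 or WA replicate 2 or 3 (adjusted p = 0.103 to 0.216), and the second without dN replicate 1 or dI replicate 2 or 3 (adjusted p = 0.0877 to 0.131).

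Of 8 genes for branches from farnesyl diphosphate, 3 were lower in dN, 3 in dI and 4 in dA, with 0, 1 and 1 higher. NUS1 and RER2, subunits of the prenyltransferase that makes dolichol, were lower in all 3. NUS1 read 8.51, 8.45 and 8.32 in WN and 6.80, 7.05 and 6.81 in dN and fell by 1.54 in dN, 1.26 in dI and 1.04 in dA (adjusted p = 5.48e-08, 5.16e-07 and 4.92e-06). RER2 fell by 0.99, 0.98 and 0.88. RAM2, a subunit of the protein farnesyltransferase, fell by 0.52, 0.63 and 0.70, all 3 with arrays that did not overlap. RAM1, its other subunit gene, and COX10 went the other way. RAM1 had means of 6.00, 6.10 and 6.17 in WN, WI and WA and 6.245, 6.39 and 6.44 in dN, dI and dA. COX10 had means of 6.41, 6.49 and 6.33 in WN, WI and WA and 6.55, 6.68 and 6.97 in dN, dI and dA. SRT1, a second prenyltransferase gene, lay at 3.46 to 4.73, above the background on 2 of 18 arrays, and its calls (higher in dI, lower in dA) are in these counts and not described further. Without SRT1 the counts were 3 lower in each and 0, 0 and 1 higher, with list medians of -0.26, -0.18 and -0.03.

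**Figure D4:**
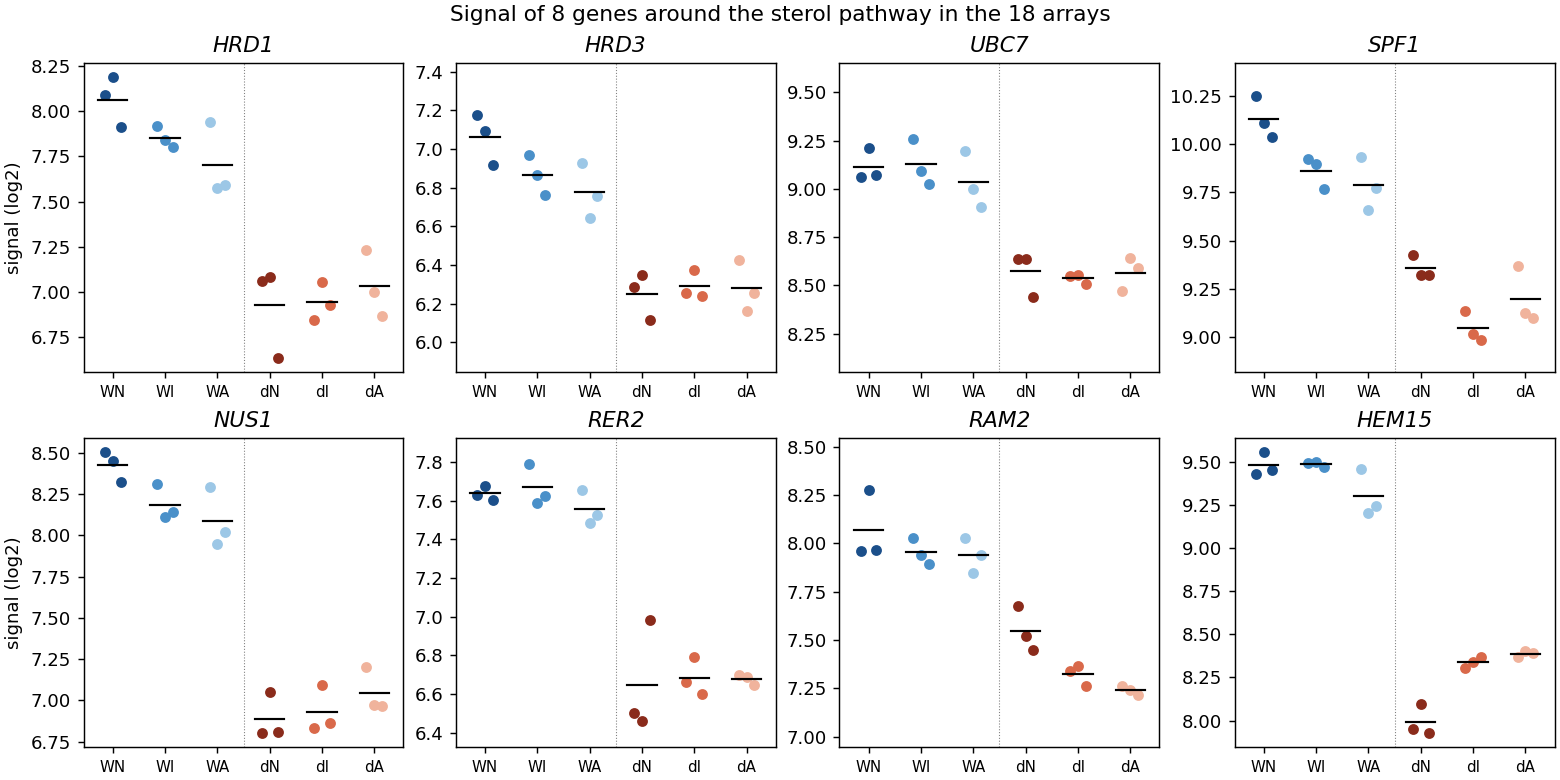
Log2 signal of 8 genes around the sterol pathway in the 6 strains, with a point for each of the 3 arrays and a black line at their mean (vertical axes differ between genes and do not start at 0). HRD1, HRD3, UBC7, SPF1, NUS1, RER2, RAM2 and HEM15 are lower in the 3 deletion strains to the right of the dotted line. Only genes that fell are drawn. Genes of the same lists that were higher, such as HEM2 in dN and dA and HEM14 in dA, are not shown.

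Heme, which Erg11, Erg5 and cytochrome b5 carry, is made by 8 of the 9 genes of the next list. HEM15, the ferrochelatase gene of the last step, read 9.43, 9.56 and 9.45 in WN and 7.95, 8.09 and 7.93 in dN and fell by 1.49 in dN, 1.15 in dI and 0.91 in dA (adjusted p = 5.07e-10, 9.99e-09 and 1.57e-07). HEM12 was lower in all 3 as well (-0.32, -0.36 and -0.56), while HEM2 was higher in dN (0.45) and dA (0.39) and HEM14 in dA (0.42). In all, 2 rose and 2 fell in dN, 0 and 3 in dI, and 2 and 2 in dA, with list medians of -0.10, -0.06 and 0.05. DAP1, whose protein binds heme and keeps Erg11 active, did not pass in any comparison of 2 strains. HEM15 was higher in the producing deletion strains than in dN, by 0.35 in dI and 0.39 in dA (adjusted p = 0.00422 and 0.0017), and neither call held in a fit of only the strains compared.

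Among 9 other regulators of sterol genes, ROX1, a repressor of oxygen-regulated genes, was higher in dN (0.58, adjusted p = 0.000182) and dI (0.61, adjusted p = 0.00011). In dA it was at -0.09. ROX1 read 6.94, 7.02 and 7.06 in WA and 6.79, 6.94 and 7.02 in dA, against 6.48, 6.64 and 6.64 in WN. MGA2, an activator of the desaturase gene OLE1, was lower in dN (-0.58) and dA (-0.54) and at -0.10 in dI, where it did not pass. OLE1 itself was at 0.05, 0.18 and 0.15 with no call. The list gave 2 higher and 1 lower in dN, 1 and 1 in dI, and 2 and 1 in dA, with medians of 0.11, 0.16 and 0.05 (SUT1 was below the background on 1 array). NSG1, a homolog of the Insig proteins that stabilizes Hmg2, was lower in dI (-0.30, adjusted p = 0.0147, and 0.0789 without dI replicate 3).

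Of 8 genes for sterol uptake and the anaerobic cell wall, DAN4, a mannoprotein gene, had the largest change, -1.94 in dN, -1.66 in dI and -1.59 in dA (adjusted p = 2.14e-11, 1.52e-10 and 2.7e-10). AUS1, a sterol importer gene, was lower in all 3 (-0.55, -0.81 and -0.49). The list gave 2 higher and 2 lower in dN, 0 and 2 in dI, and 3 and 2 in dA. However, 5 of the 8 genes (PDR11, DAN1, TIR1, TIR2 and TIR4) were below the background on at least 17 of 18 arrays, and all 3 higher calls in dA and 1 of the 2 in dN came from them. Over the other 3 genes the counts were 1 higher and 2 lower in dN, 0 and 2 in dI, and 0 and 2 in dA.

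Sterol storage and transport genes moved both ways. Of all genes, 21.5%, 20.2% and 23.2% were called in dN, dI and dA. The counts below were not read as a result about these lists. YEH1, a steryl ester hydrolase gene, was higher in all 3 deletion comparisons (0.42, 0.33 and 0.53), the middle one lost without WI replicate 2 or dI replicate 2 (adjusted p = 0.0687 to 0.0861). Of 5 genes for ester hydrolysis and sterol acetylation, 1 rose in each comparison and SAY1, a sterol deacetylase gene, fell in dN and dI, the former lost without WN replicate 1 or dN replicate 3 (adjusted p = 0.0578 to 0.0833). The list medians were -0.01, 0.05 and 0.17. Of 19 sterol transport genes, 2 rose and 4 fell in dN, 3 and 1 in dI, and 1 and 4 in dA, with medians of -0.04, 0.05 and -0.04 (HES1, which had no call in the 3 comparisons, was below the background on all arrays). ARV1, an ER membrane protein gene linked to sterol distribution, was lower in all 3 (-0.43, -0.59 and -0.46), and NPC2, a vacuolar sterol-binding protein gene, was higher in all 3 (0.32, 0.39 and 0.47). In a fit of only WN and dN, the calls in dN of ARV1, NPC2 and SAY1, and of RAM2, HEM12, MGA2 and AUS1 above, were lost.

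PRY1, the gene of a secreted sterol-binding protein, was called in several comparisons, in both directions. Against the matching wild type it was lower in dN and dA and higher in dI. The call in dA was kept under all 15 alternatives. That in dN was lost without WN replicate 2 or 3 or dN replicate 1 (adjusted p = 0.0516 to 0.0956). That in dI was lost without WI replicate 1 or dI replicate 2 (adjusted p = 0.06 to 0.0872). PRY1 was also higher in WA than in WI and in dI than in dA, the latter lost without any 1 of the dI or dA arrays. It read 7.66, 7.87 and 8.25 in WN, 8.27, 8.57 and 8.62 in WI and 9.23, 9.32 and 9.38 in WA, and 7.28, 7.50 and 7.65 in dN, 8.92, 9.05 and 8.93 in dI and 8.32, 8.26 and 8.27 in dA. It was higher in WA than in WN (1.39, adjusted p = 1.02e-05), in dI than in dN (1.49, adjusted p = 3.27e-06) and in dA than in dN (0.81, adjusted p = 0.000953). Among 9 oxygen-regulated genes outside the pathway, CYC7, the hypoxic cytochrome c gene, was higher in the same 3 comparisons, by 1.47, 2.30 and 2.37. The hypoxic COX5B was higher in dI and dA than in dN (0.76 and 0.68), calls lost in the fit of only those strains. In dI against WI, CYC7 and COX5B were also called higher, calls kept under all 15 alternatives. CYC7 was called higher in dA against WA as well. That call was lost without WA replicate 1 or 2 or dA replicate 2 or 3 (adjusted p = 0.0517 to 0.107). The aerobic CYC1 and COX5A had no call in the 9 comparisons. PET9, like CYC1 and COX5A an aerobic gene, read 11.34, 11.25 and 11.29 in WA and 11.64, 11.51 and 11.53 in dA. It was called higher in dA against WA, a call kept under all 15 alternatives. It was also called higher in dA than in dN. That call was lost without dN replicate 1 or 2 or dA replicate 1 or 3 (adjusted p = 0.0506 to 0.126). The list gave 1 higher and 0 lower in dN against WN, 2 and 0 in dI against WI, and 2 and 0 in dA against WA. The higher call in dN was ANB1, which was below the background on all 18 arrays, and AAC3 was below it on 17. Over the other 7 genes the counts were 0 and 0, 2 and 0, and 2 and 0, with medians of 0.01, 0.12 and 0.15.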

How the data were processed

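Each of the 18 arrays held total RNA of 1 culture. The deposited values are log2 signals that the authors computed in R with the affy and limma packages: the background was corrected by RMA on perfect-match probes alone, arrays were brought to a common scale by qspline, and probes were summarised by median polish. They are relative to all probes, so a change in total mRNA per cell does not show in them.

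Of 10928 probe sets, 7244 had 1 gene symbol in the annotation, 1 had several and 3683 had none. Symbols were matched to present names (YSP1 is LAM1 and AAC2 is PET9), which left 5498 probe sets of S. cerevisiae genes. The probe set with the highest mean was kept for the 47 genes with several, giving 5449 genes. The other 5430 probe sets, many of another species on the same array, set the background.

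A model with a mean per strain over all 18 arrays (12 residual degrees of freedom, limma 3.58.1, R 4.3.3) gave differences as first strain minus second, with moderated tests and Benjamini-Hochberg adjustment over the 5449 genes. Differences between backgrounds are the deletion effect minus the wild-type effect. The 30 genes are named by role, those called in any comparison of 2 strains with single arrays and the rest by range. Of each list of other genes, at most 4 were named, those with a call and the smallest adjusted p. SSM4, CUE1, DAP1, OLE1, CYC1, COX5A, RAM1 and COX10 lie outside that rule and were named after their values were seen, as were the genes at the background. List counts over genes above the background on all arrays were added after seeing the data. Members and gene lists were chosen with earlier results of these data known. The script was tested on simulated data. The alternatives were each array left out, the replicate number as a block, only the strains compared, all probe sets, quantile normalization, a filter on dim genes, array weights, a trended robust prior median centring and a shared spread without dN replicate 3. That the cultures were separate comes from the labels. The number of arrays limits the precision. One title (dN replicate 1) carries no number, and that number is a name only.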

Additional observations from a re-analysis of the deposited data

Results flagged for a closer look

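The effect of α-amylase on ERG3, the C-5 sterol desaturase gene, differed between the deletion and the wild type by -0.63463 on the log2 scale (adjusted p = 0.0341 with limma). ERG3 was lower in dA than in dN on all 3 arrays, and the arrays of WA and WN overlapped. The difference passed with limma over all 18 arrays and did not pass in 7 of the 12 fits without 1 array, with a lowest adjusted p of 0.0578 and a highest of 0.108 among them.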

How the results depend on the processing

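Of 330 results for 1 gene in 1 comparison, 36 were called, and none of their 528 values under the alternatives changed direction. The threshold was kept in 421 and lost in 107, and 10 of the 36 calls were kept under every alternative run. Of 4632 alternative values of results without a call, 90 passed. Leaving out 1 array of the strains compared gave 5 to 8 of the 30 genes called in dN against WN, 5 to 7 in dI against WI, 5 to 10 in dA against WA, 3 to 7 in dI against dN, 2 to 7 in dA against dN, 0 to 1 in dA against dI and 0 to 1 for the α-amylase effect between backgrounds. It gave 0 in each wild-type comparison and for the insulin precursor effect. There all genes gave 0.0918% to 0.367% in WI against WN and 1.78% to 4.35% in WA against WN. They gave 0.22% to 0.661% in WA against WI and 0.22% to 2.06% for the insulin precursor effect. A fit of only the strains compared gave 2 in dN against WN, 0 in dI against dN, 0 in dA against dN, 2 in dA against dI and 0 for the α-amylase effect. Testing all probe sets gave 5 in dN against WN, 5 in dI against WI, 0 in dA against dI and 0 for the α-amylase effect. Array quality weights gave 14 in dI against WI, 15 in dA against WA, 5 in WA against WN, 14 in dI against dN, 15 in dA against dN, 4 in dA against dI and 3 for each of the insulin precursor and α-amylase effects. Without dN replicate 3 in the shared spread there were 2 in WA against WN and 2 in dA against dI. Quantile normalization gave 0 in dA against dI and 0 for the α-amylase effect, and a trended robust prior gave 0 in dA against dI. Counts over all genes moved in the same fits. Leaving out 1 array gave 13.3% to 34.6% of all genes in dN against WN. It gave 13.6% to 16.1% in dI against WI and 16.9% to 20.7% in dA against WA. The shares were 6.53% to 21.8% in dI against dN and 6.11% to 24.7% in dA against dN. They were 0.312% to 1.06% in dA against dI and 0.514% to 7.34% for the α-amylase effect. With array quality weights 39.9% of all genes were called in dI against WI, 43.5% in dA against WA, 26.9% in WA against WN, 34.3% in dI against dN, 42.2% in dA against dN, 25% in dA against dI, 8.11% for the insulin precursor effect and 18% for the α-amylase effect. With only the strains compared the shares were 6.29% in dN against WN, 1.3% in dI against dN, 1.5% in dA against dN and 8.68% in dA against dI. For the α-amylase effect that share was 0.312%. Without dN replicate 3 in the shared spread they were 9.54% in WA against WN and 6.88% in dA against dI. Quantile normalization gave 1.06% in dA against dI and 1.25% for the α-amylase effect. A trended robust prior gave 0.936% in dA against dI. Of all 10928 probe sets, 884 were called in dN against WN, 872 in dI against WI, 48 in dA against dI and 53 for the α-amylase effect. The cause was not tested, except that fits of fewer strains use fewer arrays and tests of all probe sets adjust over more of them.

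Same-numbered arrays did not deviate together throughout. Of 40 pairs with the same number, 17 had a correlation of deviations over 0.1, and the range was -0.564 to 0.675. Wild-type pairs were at 0.365 to 0.675 for number 1, -0.368 to 0.402 for number 2 and 0.47 to 0.579 for number 3. With the wild-type arrays numbered 3, dN replicate 3 was at 0.425 to 0.62 and dI replicate 3 at -0.227 to -0.124. The numbers were not taken to pair the samples, and a batch shared by some of these arrays was not tested. With the replicate number as a block, over the numbered arrays, 3 of the 30 genes were called in dI against dN, 2 in dA against dN, 0 in dA against dI and 0 for the α-amylase effect, and the other counts stayed within 1.5 times. In the same fit 9.67%, 7.95%, 1.01% and 0.569% of all genes were called in these comparisons, in that order. A search of the promoters for the sterol response element was not run. UPC2 and ECM22 lay close to the background, which limits how well their changes are measured.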
